A study of Mus musculus with 16 samples.

Results

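The genes Cxcl5, Ppbp, Pf4, Cxcl3, Cxcl1 and Cxcl2 lie in a cluster on mouse chromosome 5 and encode CXC chemokines, most of which recruit neutrophils. The 6 members were followed through the peaks that overlapped chr5:90895000-91065000, an interval of 170 kb in GRCm39 coordinates, in the peak lists of 16 libraries. The interval held 123 of the 320508 peaks of the 16 lists, of which 52 were H3K18la peaks, 20 H3K4me3, 43 H3K27ac and 8 H3K27me3. Macrophages were sorted as CD45+, CD11b+, F4/80+ and CD64+ cells from the calf muscle of wild type C57BL6J males, aged 8 to 12 weeks, whose femoral artery had been ligated, at 4 and 2 days post injury (dpi). Each of 4 histone modifications (hPTMs) was profiled by CUT&Tag, in which an antibody brings a transposase to modified chromatin, with 2 libraries per hPTM and time point. No uninjured muscle and no antibody-free control was analysed here, so every comparison was between hPTMs or between the 2 time points.

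CXC chemokines are small secreted proteins that attract leukocytes along a gradient. Cxcl1, Cxcl2, Cxcl3 and Cxcl5 act mainly on the neutrophil receptor Cxcr2, and macrophages that sense tissue damage release several of them early in muscle injury. Ppbp is the precursor of a platelet-derived neutrophil attractant, and Pf4 is a platelet granule chemokine that does not act as a classical neutrophil attractant. H3K4me3 marks active promoters, H3K27ac active promoters and enhancers, and H3K27me3 chromatin held silent by Polycomb, while lactylation of lysine 18 (H3K18la) is a lactate-linked mark found at active elements.

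The sequences before the gene starts are shown because letters of the NF-kB type, a factor that inflammatory signals activate, occurred before some members and not before others. RefSeq promoters (GRCm38.p6) were found for 5 of the 6 members, all on the plus strand. Each line gives the 150 bases before the start, 5′ to 3′, with matches in capitals: GGNNTTTCC (NF-kB type) and TATAAA (core promoter element), searched on both strands. The windows were chr5:90768368-90768517 (Ppbp), chr5:90772285-90772434 (Pf4), chr5:90785951-90786100 (Cxcl3), chr5:90891095-90891244 (Cxcl1) and chr5:90903749-90903898 (Cxcl2).
Ppbp: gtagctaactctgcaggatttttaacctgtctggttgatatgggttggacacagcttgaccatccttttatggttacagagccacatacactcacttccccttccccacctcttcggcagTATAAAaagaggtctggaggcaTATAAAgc
Pf4: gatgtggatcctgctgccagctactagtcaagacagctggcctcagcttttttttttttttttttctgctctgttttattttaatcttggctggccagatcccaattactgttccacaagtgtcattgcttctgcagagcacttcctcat
Cxcl3: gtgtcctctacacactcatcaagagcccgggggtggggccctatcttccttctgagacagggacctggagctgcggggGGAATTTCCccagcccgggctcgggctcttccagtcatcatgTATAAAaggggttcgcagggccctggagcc
Cxcl1: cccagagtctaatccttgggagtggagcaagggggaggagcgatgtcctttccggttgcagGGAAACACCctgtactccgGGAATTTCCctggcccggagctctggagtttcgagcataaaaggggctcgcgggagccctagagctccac
Cxcl2: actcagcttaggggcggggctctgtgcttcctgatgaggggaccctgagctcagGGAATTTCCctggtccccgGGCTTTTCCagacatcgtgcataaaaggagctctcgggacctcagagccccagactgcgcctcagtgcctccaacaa

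The NF-kB type letters occurred 2 times before Cxcl1, beginning 89 and 70 bases upstream of the start, 2 times before Cxcl2, at 96 and 77 bases, and 1 time before Cxcl3, at 72 bases. Ppbp and Pf4 held no match within 250 bases, and 4.93% of 32851 promoters of that length held at least 1. TATAAA was found 30 bases upstream of Cxcl3 and 30 and 8 bases upstream of Ppbp, against 12.4% of all promoters. TTGCNNAA (C/EBP type) matched once, 212 bases before Pf4 (9.56% of all promoters), and TGANTCA (AP-1 type) once, 204 bases before Ppbp (6.75% of all promoters). The last 2 matches lay outside the printed bases. A match is a run of letters and not a measured site.

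The peaks gathered towards both ends of the interval. Between positions 90938721 and 90986496, a stretch of 47.8 kb, no library of any hPTM had a peak. The H3K4me3 and H3K27me3 peaks, merged over their 8 libraries, fell at 8 places, called A to H here in their order along the chromosome. This rule for the places was chosen after the peaks had been seen. A (90905969-90909159) was called for H3K27me3 alone. B (90918581-90922957) and C (90933318-90934929) lay next to it, and D (91023826-91025615), E (91028701-91030725), F (91037655-91040369), G (91044736-91046997) and H (91050452-91053696) lay together at the far end.

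**Figure D1:**
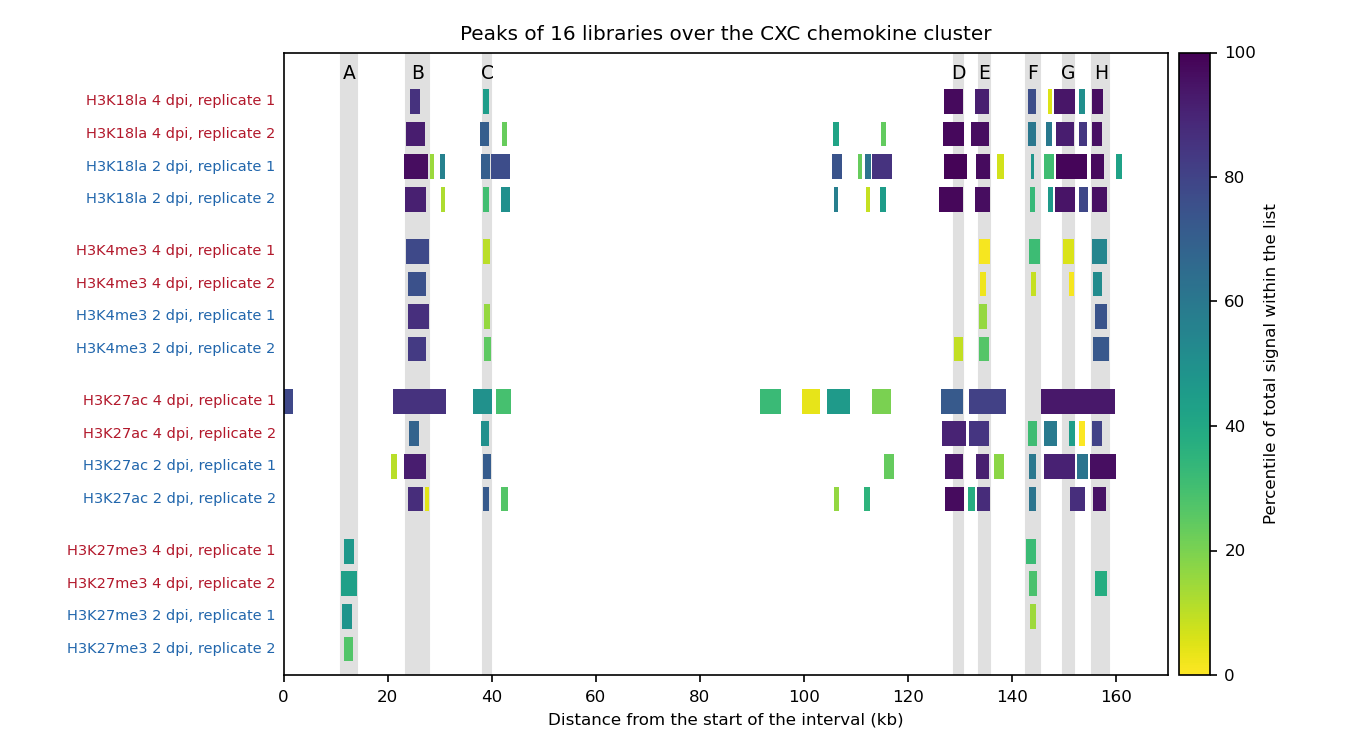
Peaks of each library along the interval, as the distance from its start in kb, with the 4 dpi libraries above the 2 dpi libraries of each hPTM and colour for the percentile of total signal within the list. Grey bands mark places A to H; H3K18la and H3K27ac peaks cluster at B and C and from D to H, weaker peaks lie before D, and a stretch of 47.8 kb after C is empty.

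No peak was assigned to a gene, because the gene annotation used belongs to GRCm38 and the peaks to GRCm39. The order of the genes there was Cxcl5, Ppbp, Pf4, Cxcl3, Cxcl15, Cxcl1 and Cxcl2. The distances can still be set side by side. In the files, the peak maxima at B and C were 13.6 kb apart, those at C and F 105 kb, and those at F and H 12.7 kb. In GRCm38, the starts of Pf4 and Cxcl3 were 13.7 kb apart, those of Cxcl3 and Cxcl1 105 kb, and those of Cxcl1 and Cxcl2 12.7 kb. These 3 pairs were picked, after the peaks had been seen, from 28 distances between places and 10 between starts. A and B, at 13.3 kb, were also close to 13.7 kb apart, and the 3.92 kb between Ppbp and Pf4 was shorter than any distance between places, of which that between G and H was the shortest at 4.86 kb.

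H3K18la covered more of the interval than H3K4me3 or H3K27me3, and it was denser there than in most of the genome. The called length was 18.7 and 25.8 kb in the 4 dpi H3K18la libraries (replicates 1 and 2), against 40.5 and 27.9 kb in the 2 dpi libraries. Every H3K18la library placed the interval above 98.9 to 99.7% of 15991 windows of the same length, and its called share was 11.6 to 17.7 times that of the whole list. For H3K4me3 the called length was 14.8 and 8.62 kb at 4 dpi, against 9.25 and 11.8 kb at 2 dpi, which was 3.62 to 4.82 times the share of the list. The H3K4me3 time points overlapped, as did those of H3K27ac. H3K27ac covered 60.0 and 20.4 kb at 4 dpi, against 31.3 and 22.4 kb at 2 dpi, or 4.69 to 9.50 times. H3K27me3 covered 3.96 and 7.02 kb at 4 dpi, against 3.02 and 1.85 kb at 2 dpi, or 0.484 to 1.39 times. The length of 60.0 kb belonged to a list that stood apart. H3K27ac 4 dpi replicate 1 carries another batch code than the other 3 H3K27ac libraries, and what the code stands for was not established. The peaks of that library covered 205 Mb, against 37.8 to 65.3 Mb in those 3.

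Over both time points, H3K18la covered 28.2 ± 9.04 kb and H3K4me3 11.1 ± 2.80 kb (SD, n = 4 libraries each), a difference of 17.1 kb (two-sided exact permutation test, p = 0.0286, adjusted p = 0.0343 over 6 pairs of hPTMs). H3K27me3 covered 3.96 ± 2.21 kb and lay below H3K18la, H3K4me3 and H3K27ac at the same adjusted p of 0.0343 (exact permutation); the smallest unadjusted p of 4 against 4 libraries is 0.0286. H3K18la differed from H3K27ac by -5.30 kb (28.2 ± 9.04 kb and 33.5 ± 18.3 kb), which was within the spread of the libraries (exact permutation, adjusted p = 0.714). As a share of the called length of the whole list this difference turned round, with H3K18la above H3K27ac by 0.0456 percentage points (exact permutation, adjusted p = 0.0343). The tests take libraries of different hPTMs as independent, although the study made its hPTM data from shared samples. With libraries paired by time point and replicate number, the 5 called differences had an adjusted p of 0.15 (exact sign-flip permutation, which cannot go below 0.125 with 4 pairs). All 4 H3K27ac libraries carry other batch codes than the libraries of the other hPTMs. Batch code and hPTM therefore cannot be told apart in any comparison with H3K27ac.

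Within a hPTM the time points did not separate beyond what 2 against 2 libraries can show. H3K18la covered 11.9 kb less at 4 than at 2 dpi (22.3 ± 5.01 kb and 34.2 ± 8.85 kb) and H3K27me3 3.05 kb more (5.49 ± 2.16 kb and 2.43 ± 0.83 kb), with groups that did not overlap and an exact permutation p of 0.333, the smallest possible (SD, n = 2). Without 1 library the H3K18la difference ranged from -18.2 kb (without 2 dpi replicate 2) to -5.66 kb (without 2 dpi replicate 1), and the H3K27me3 difference from 1.52 kb (without 4 dpi replicate 2) to 4.58 kb (without 4 dpi replicate 1). H3K4me3 (11.7 ± 4.35 kb at 4 dpi, 10.5 ± 1.80 kb at 2 dpi) and H3K27ac (40.2 ± 28.0 kb at 4 dpi, 26.9 ± 6.27 kb at 2 dpi) overlapped between time points (exact permutation p = 1 each). Without H3K27ac 4 dpi replicate 1, the H3K27ac difference of 13.3 kb became -6.47 kb.

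**Figure D2:**
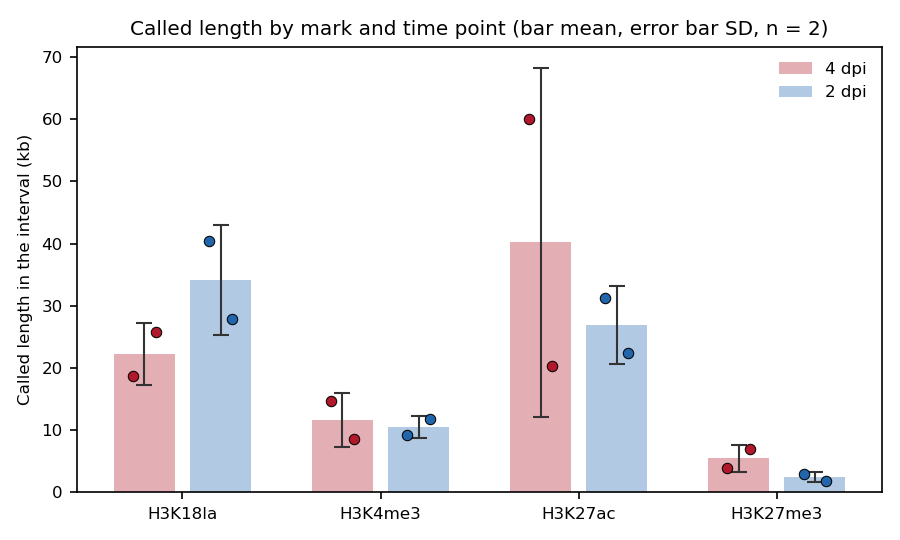
Called length within the interval in kb for each hPTM at 4 dpi (red, left) and 2 dpi (blue, right); points are libraries, bars the mean and error bars the SD of 2 libraries. The H3K18la libraries at 4 dpi lie below those at 2 dpi, and 1 H3K27ac library at 4 dpi, at 60.0 kb, lies far above the other.

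By total signal, the strongest H3K18la peak of the interval overlapped D in all 4 libraries. In 3 of them its maximum lay before D, at 91022455 or 91022460. Strength is given as the share of peaks in the same list with a lower total signal, as a percentile, since the signal was not normalised between libraries. At D, H3K18la reached the percentiles 97.6 and 97.7 at 4 dpi, against 98.9 and 98.1 at 2 dpi. H3K27ac was also strong there, with percentiles of 72.2 and 90.4 at 4 dpi, against 94.8 and 96.9 at 2 dpi. H3K4me3 was called at D in 1 library of 4, 2 dpi replicate 2, at percentile 9.14. By mean signal per base, D did not rank first for H3K18la in any library. H ranked first except in 2 dpi replicate 2, where E did. By maximum signal, D ranked first for H3K18la at 2 dpi. At 4 dpi H stood above D by this measure, at 98.4 and 98.3 against 96.1 and 97.1.

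By total signal, the strongest H3K4me3 peak of the interval lay at B in all 4 libraries. Its percentiles were 78.1 and 75.1 at 4 dpi, against 86.7 and 82.9 at 2 dpi, so that the groups did not overlap. By maximum signal, H stood above B for H3K4me3 in replicate 2 of each time point. By mean signal per base, H stood above B in 2 dpi replicate 1 and 4 dpi replicate 2. H3K18la at B stood at 85.6 and 92.1 at 4 dpi, against 96.7 and 91.2 at 2 dpi. No H3K27me3 peak was called at B, C, D, E or G in any library. C was weaker than B, with H3K4me3 at 10.3 in 4 dpi replicate 1 and no peak in the other 4 dpi library, against 15.8 and 24.7 at 2 dpi. At C, H3K18la stood at 44.9 and 70.5 at 4 dpi, against 70.0 and 30.2 at 2 dpi. A stronger peak of 2 dpi replicate 1, at 76.9, touched the end of C but had its maximum outside, and was not part of the region tested at C.

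E and G combined strong H3K18la with faint H3K4me3. At E, H3K18la stood at 91.4 and 96.5 at 4 dpi, against 97.0 and 96.6 at 2 dpi, while H3K4me3 stood at 1.48 and 2.68 at 4 dpi, against 15.9 and 26.7 at 2 dpi. At G, H3K18la stood at 94.4 and 92.2 at 4 dpi, against 98.7 and 94.8 at 2 dpi, and both 4 dpi maxima lay before G. H3K4me3 at G was called at 4 dpi only, at percentiles 5.47 and 1.22. Both places also held H3K27ac in all 4 libraries. At E, H3K27ac stood at 80.8 and 84.5 at 4 dpi, against 91.8 and 87.9 at 2 dpi. At G, H3K27ac stood at 93.5 and 44.2 at 4 dpi, against 90.9 and 87.0 at 2 dpi. The maxima of the peaks at 93.5 and 87.0 lay past the end of G, that at 93.5 within H.

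H, like B and E, carried all 3 hPTMs of active chromatin in all 4 libraries of each. Its H3K18la percentiles were 96.2 and 95.8 at 4 dpi, against 97.5 and 95.7 at 2 dpi, so that the groups overlapped. Its H3K4me3 percentiles were lower, at 54.7 and 52.2 in the 4 dpi libraries, against 74.4 and 72.7 in the 2 dpi libraries. H3K27ac at H stood at 93.5 and 80.4 at 4 dpi, against 96.4 and 95.2 at 2 dpi; the value of 93.5 belonged to 1 peak of 14.2 kb that covered both G and H in the list that stood apart. H3K27me3 was called at H in 1 library of 4, 4 dpi replicate 2, at 38.1. The maxima of the 13 peaks at H lay within 0.38 kb of each other.

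F was, besides H, the place where peaks of all 4 hPTMs were called. H3K18la at F stood at 76.2 and 60.2 at 4 dpi, against 47.9 and 33.0 at 2 dpi. H3K4me3 was called in both 4 dpi libraries, at 31.4 and 8.74, and in neither 2 dpi library. H3K27ac had no peak at F in 4 dpi replicate 1 and stood at 31.0 in 4 dpi replicate 2, against 60.0 and 61.4 at 2 dpi. H3K27me3 was called at 31.8 and 28.9 at 4 dpi, against 14.5 in 2 dpi replicate 1 and no peak in the other 2 dpi library. The 12 maxima at F lay within 0.526 kb. A, by contrast, held only H3K27me3, at 46.8 and 43.6 at 4 dpi, against 48.2 and 27.3 at 2 dpi.

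**Figure D3:**
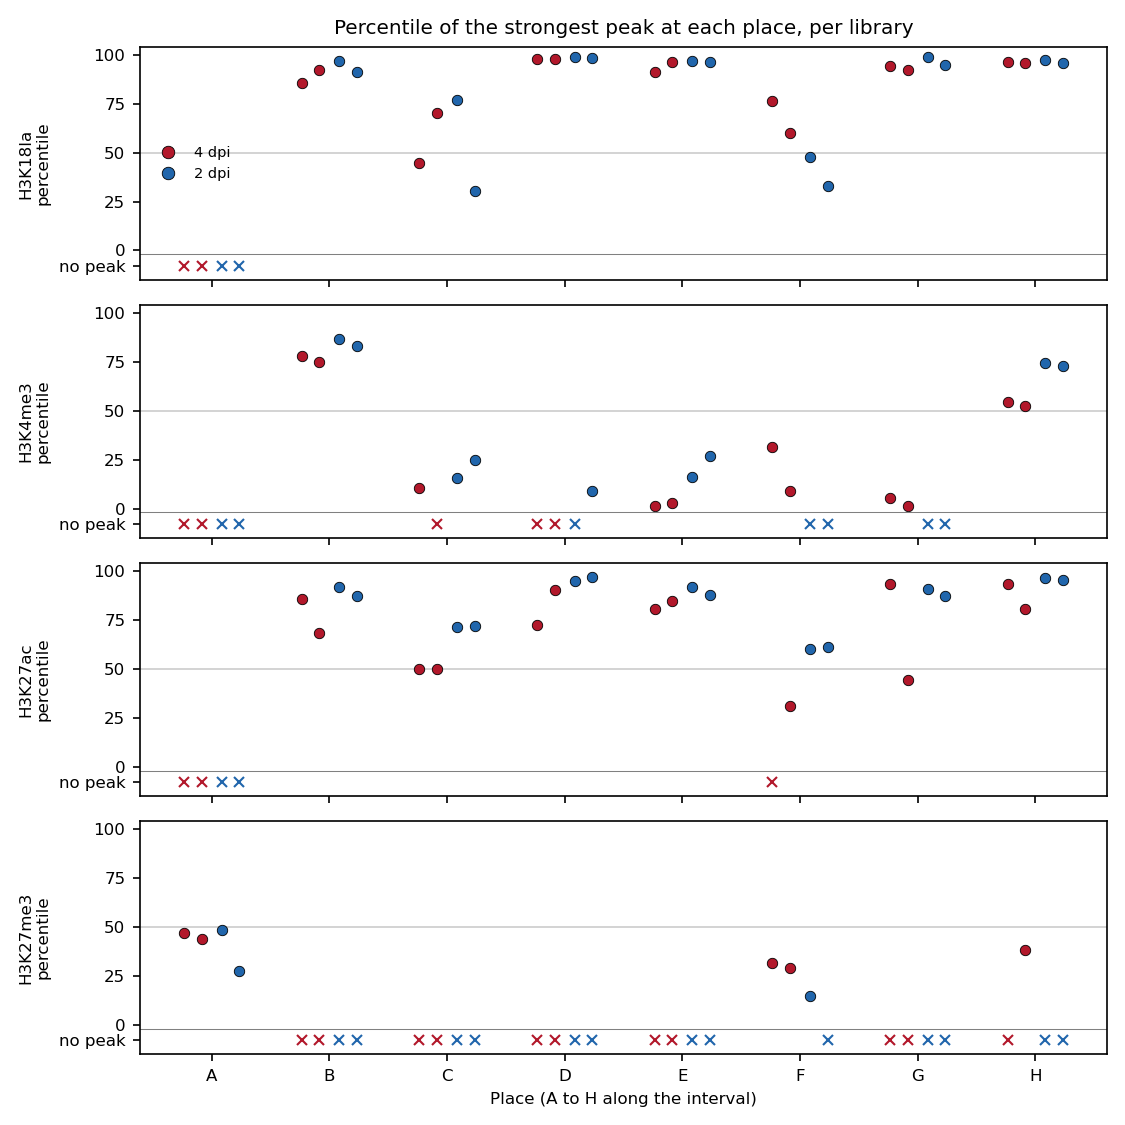
Strength of the strongest peak, as a percentile of its list, at places A to H for each library, with 4 dpi in red to the left of 2 dpi in blue and crosses for libraries with no peak; at C the H3K18la point of 76.9 is the peak that only touches C. H3K18la lies above 91 at D, E, G and H in all libraries; H3K4me3 at B and H is lower at 4 than at 2 dpi, and at F and G it was called at 4 dpi only.

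Regions called in all 4 libraries of a hPTM were tested for a change in rank between 4 and 2 dpi. Ranks were turned into normal scores, and their shift, 4 minus 2 dpi, was fitted with limma over all such regions of the hPTM, with calls made below an adjusted p of 0.05. In the interval 8 of 17 H3K18la regions, 3 of 7 H3K4me3, 6 of 13 H3K27ac and 1 of 3 H3K27me3 regions could be tested. Of these, 1 was called, the H3K4me3 region at H, which fell. Over the genome 8.07% of 13298 H3K4me3 regions fell and 7.78% rose. The median shift was -0.66 for the 3 H3K4me3 regions of the interval, against 0.01 over all of them, and -0.07 for the 8 H3K18la regions, against 0.0017.

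At H the H3K4me3 region held the percentiles 37.4 and 40.9 among the tested regions at 4 dpi, against 65.3 and 64.4 at 2 dpi. Its shift was -0.66 ± 0.14 (SE, limma adjusted p = 0.0111), lower in both 4 dpi libraries. With the maximum in place of the total signal the shift was -0.45 (limma adjusted p = 0.345), and limma without trended, robust variance gave an adjusted p of 0.0768. The H3K4me3 regions at E (shift -1.56 ± 0.54, limma adjusted p = 0.0653) and B (-0.33 ± 0.12, limma adjusted p = 0.0775) did not pass. Both had lower percentiles in each 4 dpi library than in either 2 dpi library. The share of all tested H3K4me3 regions that separated in this way was not counted. E lay near the bottom of the ranks, at 0.056 and 0.80 among the tested regions at 4 dpi, against 6.79 and 14.7 at 2 dpi. Small differences in rank give large normal scores there. With median-scaled log2 signal the shifts were -0.88 at E and -0.72 at H. The unadjusted limma p was under 0.05 for all 3 tested H3K4me3 regions of the interval, against 32.7% of all 13298.

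None of the 8 H3K18la regions was called, where 0.0429% of 9325 regions rose and 0.0751% fell, and 14.8% had an unadjusted p under 0.05, as did 1 of the 8. The region at F had the largest shift of the 8, at 1.12 ± 0.47 (limma adjusted p = 0.292), with 60.3 and 33.3 among the tested regions at 4 dpi, against 7.35 and 16.7 at 2 dpi. The other 7 shifts lay between -0.29 and 0.48 (limma adjusted p of 0.529 to 1.00), and at H the shift was -0.00012 ± 0.16. The H3K27me3 region at A shifted by -0.09 ± 0.35 (limma adjusted p = 0.923), where 0.892% of 7515 regions rose and 0.0532% fell.

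All 6 H3K27ac shifts were negative and none passed, where 0.178% of 13494 regions rose and 0.00741% fell. They were -0.81 ± 0.32 at B, -0.83 ± 0.43 at C, -0.91 ± 0.30 at D, -0.65 ± 0.27 at E and -0.76 ± 0.19 over G and H together, with limma adjusted p of 0.110 to 0.407. The sixth region straddled the start of the interval (-0.13 ± 0.59, limma adjusted p = 0.935), and a single library's peak reached inside. The unadjusted p was under 0.05 for 4 of the 6, against 14.0% of all tested H3K27ac regions. The median of the 6 shifts was -0.78, against -0.07 over all tested H3K27ac regions. In each of the 5 regions at the places, both 4 dpi libraries ranked below both 2 dpi libraries. The share of all tested H3K27ac regions that separated in this way was not counted, so this order alone does not set the 5 apart.

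The wide list joined G and H into a single H3K27ac region. Without H3K27ac 4 dpi replicate 1, the 3 libraries left shared a batch code, and the region at H (91049983-91055025) stood alone. It fell by 1.06 ± 0.26 (limma adjusted p = 0.0452), where 0.28% of 16083 regions fell. The part over G, tested on its own, shifted by -0.62 ± 0.29 (limma adjusted p = 0.498). With a lone 4 dpi library this fit takes that library to vary as the others do.

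**Figure D4:**
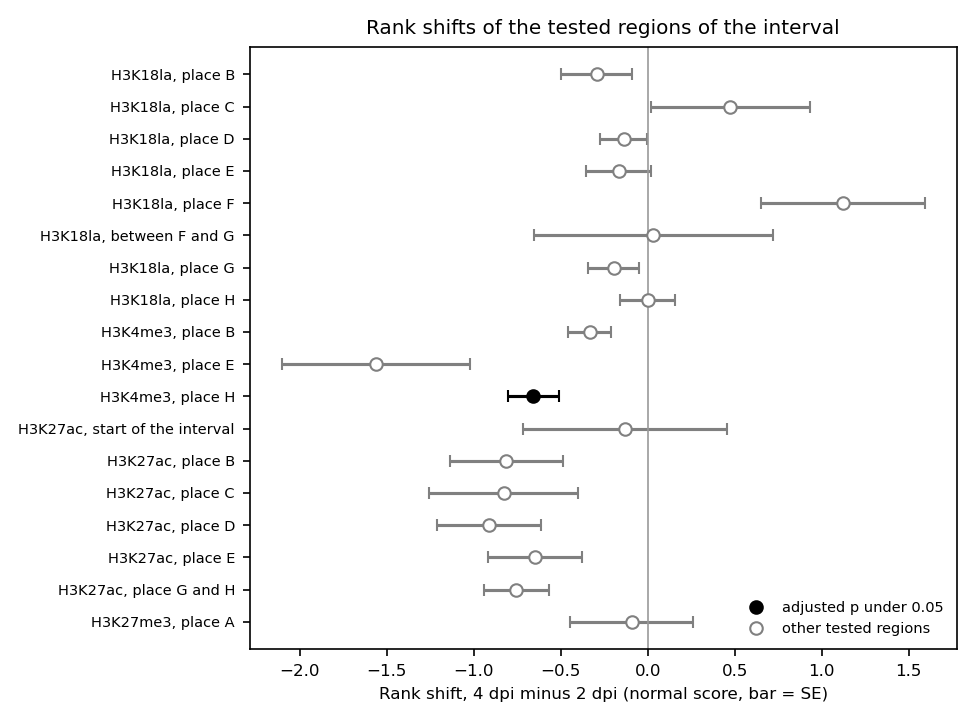
Rank shift, 4 minus 2 dpi, of the 18 tested regions of the interval as normal score, with the SE from limma; the filled point passed an adjusted p of 0.05. The H3K4me3 region at H, at -0.66, is the filled point, all 6 H3K27ac shifts lie below 0, and the H3K18la shift at F, at 1.12, is the highest.

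Regions called in both libraries of 1 time point and neither of the other were counted without a test. H3K4me3 gained 2 of its 7 regions at 4 dpi, those at F and G, against 5.28% of 19426 regions over the genome, and lost none. H3K18la lost 2 of its 17 regions, against 4.37% of 29837, and gained none. The lost H3K18la regions were short and lay outside the places: 90924993-90926105, with 1.11 and 0.709 kb called in the 2 dpi libraries, and 91006787-91007822, with 1.04 and 0.796 kb. When H3K18la peaks up to 1 kb apart were merged, neither counted as lost, and when only the stronger 50% of each list was kept, neither H3K4me3 gain remained. H3K27ac and H3K27me3 had no region gained or lost in the interval.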

How the data were processed

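CUT&Tag peak lists of 16 libraries were analysed. The submitters' processing notes name Trim Galore 0.6.6, Bowtie2 2.4.4, SAMtools 1.13 and bedtools 2.30 for the reads and SEACR 1.3 for calling peaks per library. The deposited signal holds the sum and the maximum of fragment coverage over a peak, which the authors did not normalise between libraries. Read counts are not in the lists, so depth is unknown and no interval that rests on it is given. Deeper or noisier libraries can give longer lists, and called lengths depend on this. Labels name GRCm39 and the methods of the study mm10. Some peaks end beyond the GRCm38 chromosome ends, so the lists were taken as GRCm39. Peaks at gene starts, other pathway genes, other chemokine clusters and markers of the sorted cells need a GRCm39 annotation and were not run.

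Peaks on 21 chromosomes were used. Peaks of a mark overlapping by at least 1 bp formed a region. Every region of the interval that was tested, and every region gained or lost, is named. Ranks of total signal within each library were turned into normal scores and tested with limma 3.58.1 (R 4.3.3, trend and robust, Benjamini-Hochberg over all regions of the mark). Called lengths were compared with exact permutation tests (Python 3.11.15, scipy 1.17.1). The fit was tested on simulated data with planted shifts larger than those of the interval, so that test does not cover shifts of the sizes reported. List names of H3K27me3 at 4 dpi swap the replicate numbers of the labels, which were followed. The methods of the study call the libraries biological replicates, and the labels tie none to a mouse. Alternatives were the maximum signal, median-scaled log2 signal (pseudocount 1), other filters and merging, a replicate block and leaving out each library. The members and lists were chosen with earlier results of these data known.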

Additional observations from a re-analysis of the deposited data

Results flagged for a closer look

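The called length in the interval moved in opposite directions for 2 hPTMs. For H3K18la both 4 dpi libraries lay below both 2 dpi libraries, with a mean difference of -11.9 kb, while for H3K27me3 both 4 dpi libraries lay above both 2 dpi libraries, with a mean difference of 3.05 kb. The difference between the 2 hPTMs was not tested. The H3K27me3 lists as a whole covered 79.8 and 80.9 Mb at 4 dpi, against 52.1 and 61.0 Mb at 2 dpi. The H3K18la lists covered 25.7 and 32.5 Mb at 4 dpi, against 46.0 and 25.3 Mb at 2 dpi. With all lists cut to 12060 peaks the differences in the interval were -9.11 kb for H3K18la and 3.05 kb for H3K27me3. Within the stronger 50% of each list the H3K18la difference was -8.09 kb. No H3K27me3 peak of the interval was left there at either time point, so its difference of 0 kb was fixed by the cut. As a share of the called length of the list, H3K18la differed by -0.0231 percentage points and H3K27me3 by 0.00241 percentage points, with H3K27me3 time points that overlapped.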

How the results depend on the processing

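Of 206 alternative values of the 18 tested shifts, 183 kept their direction and their side of the threshold. The H3K4me3 call at H kept its direction under all 12 alternatives and passed under 10, with a limma adjusted p of 0.00512 to 0.0488 without 1 library. The number of H3K4me3 regions called in the interval was 1, and it was 0 with the maximum signal, 0 without trended, robust variance and 2 with median-scaled log2 signal, which added E (shift -0.88, limma adjusted p = 0.0144). For H3K27ac it was 0, and 1 when regions called in at least 2 libraries were tested, 2 with the replicate block, and 0 to 1 without 1 library. Within a hPTM, the replicate numbers did not pair the libraries across the time points (correlation of same-numbered deviations -0.065 for H3K18la, -0.0027 for H3K4me3, 0.086 for H3K27ac, -0.052 for H3K27me3). Pairing of libraries between hPTMs was not examined in this way. The replicate block changed no other count of calls in the interval. Over all regions, calls ranged from 0 to 394 for H3K18la (11 as reported), 0 to 2776 for H3K4me3 (2108), 0 to 581 for H3K27ac (25), and for H3K27me3 0 to 561 (71). The median-scaled log2 signal moved the median of all regions by -0.31 for H3K18la and 0.24 for H3K27me3. Shifts that changed direction, none of them called, were, with the maximum signal, H3K18la at C (-0.31), between F and G (-0.029) and at H (0.42), H3K27ac at the interval start (1.01) and H3K27me3 at A (0.091); with peaks up to 1 kb apart merged, H3K18la at C (-0.44) and between F and G (-0.059); with regions called in at least 2 libraries, H3K18la at H (0.00027); and with median-scaled log2 signal, H3K27me3 at A (0.32). Without 1 library, shifts ranged from -0.80 to 0.87 for H3K18la between F and G, -0.034 to 0.036 at H and -0.38 to 0.050 at E, from -0.84 to 0.58 for H3K27ac at the interval start and from -0.39 to 0.15 for H3K27me3 at A. The cause was not tested.

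With lists cut to 12060 peaks each, H3K18la minus H3K27ac called length was 2.09 kb, H3K4me3 minus H3K27me3 2.43 kb (exact permutation, adjusted p = 0.137) and H3K4me3 at 4 minus 2 dpi -0.39 kb, as it was in the stronger 50% of each list. As a share of the list's called length, H3K4me3 minus H3K27ac was -0.0155 percentage points (exact permutation, adjusted p = 0.0571), 4 minus 2 dpi was -0.0029 for H3K4me3 and -0.023 for H3K27ac, and H3K18la minus H3K27ac was 0.0456. A block pairing libraries by time point and number left the differences of 17.1, 24.3, -22.4, 7.15 and 29.6 kb at an adjusted p of 0.15, since 4 pairs cannot go below 0.125. Without 1 library no pair of hPTMs can reach 0.05 (smallest p 0.0571): the differences were 13.1 to 20.3 kb for H3K18la minus H3K4me3, 20.2 to 27.4 kb for H3K18la minus H3K27me3, -26.8 to -13.6 kb for H3K4me3 minus H3K27ac, 5.93 to 8.17 kb for H3K4me3 minus H3K27me3 and 20.8 to 34.0 kb for H3K27ac minus H3K27me3. H3K18la minus H3K27ac ranged from -9.67 kb to 3.52 kb, its highest value without H3K27ac 4 dpi replicate 1. Called length at 4 minus 2 dpi ranged from -1.90 to 4.25 kb for H3K4me3 and from -6.47 to 33.1 kb for H3K27ac.

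The strongest peak of each list was picked anew under each measure, so it could lie at another place. Its mean percentile moved to 67.2 for H3K4me3 and 56.7 for H3K27me3 by maximum signal. By mean signal per base it moved to 98.9 for H3K18la, 66.0 for H3K4me3 and 70.0 for H3K27me3. Within the stronger 50% of each list it moved to 96.2 for H3K18la, 61.4 for H3K4me3 and 88.7 for H3K27ac, and H3K27me3 had no peak left. Within that 50%, H3K18la gained 1 region, H3K27ac lost 1 and H3K4me3 gained 0. With lists of equal length H3K4me3 gained 1 and lost 1 region, and with peaks up to 1 kb apart merged H3K18la lost 0. The depth of the libraries is unknown, and 2 libraries per time point limit every comparison of time points. Peaks in windows around gene starts were not counted at any width, as no GRCm39 annotation was used here.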

Other observations

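F, where H3K4me3 was gained at 4 dpi, overlapped H3K27me3 peaks in both 4 dpi libraries and H3K18la peaks in all 4. This combination was looked up over the genome after the values at F had been seen. Of 1026 H3K4me3 regions gained at 4 dpi, 227 (22.1%) overlapped H3K27me3 in both 4 dpi libraries, 144 (14.0%) overlapped H3K18la in all 4 libraries, and 11 (1.07%) overlapped both. Of 13298 H3K4me3 regions called in all 4 libraries, 12.1% overlapped H3K27me3 in this way, 31.8% H3K18la and 1.89% both.

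Of the H3K18la called length in the interval, 33.7 and 45.0% lay outside the limits of places A to H at 4 dpi, against 64.1 and 46.3% at 2 dpi. These shares include the parts of peaks at the places that reached past the limits. The highest of these values belonged to the longest H3K18la list, with 27578 peaks, against 15190 to 17578 in the other 3.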
